A study of Mus musculus with 8 samples.

Results

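Gene expression in the left ventricle of mice late in pregnancy was set against that of non-pregnant mice in diestrus, a phase of the estrous cycle. The arrays were chosen by their sample titles: 2 arrays titled for day 19 of pregnancy (replicates 1 and 2) and 2 titled for diestrus (replicates 2 and 3), which is 4 of the 8 arrays of the series. By the treatment protocol, mice of the late group were killed at day 18 or 19. All mice were female C57BL/6 animals, 3 to 4 months old, either timed pregnant or not pregnant, with no other treatment named in the labels. The other arrays were from day 12 of pregnancy and day 1.5 after birth, 2 each. Each ventricle was cut into 3 pieces and RNA of 1 piece was isolated, of which 100 ng was labelled. The labels do not tie the arrays to animals, so p-values measure only the spread between these samples. Values below are log2 expression values of 1 probe set per gene, given in the order of the replicate numbers. In such bulk tissue, fewer cells of a type and less RNA per cell cannot be told apart.

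Late pregnancy loads the heart with a larger blood volume and a higher output, and the maternal ventricle enlarges in a reversible way. Heart muscle under load can switch on genes of the fetal heart, such as the slow myosin heavy chain and the natriuretic peptides. Chemokines and acute-phase proteins are made by stressed or inflamed tissue and draw white blood cells. Fuel use in pregnancy moves toward fatty acids, under placental and adrenal hormones.

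Markers of ventricular muscle were high on all 4 arrays. Myl2, Myl3, Myh6 and Irx4, which define it here, stood at 8.53 and 8.46, 12.05 and 11.93, 12.48 and 12.34, and 8.46 and 8.06 on the day 19 arrays. On the diestrus arrays they stood at 8.78 and 8.72, 12.10 and 12.12, 12.53 and 12.54, and 8.71 and 8.52. Of 12 ventricular markers, 12 were lower on average at day 19, by a median of -0.12, beside -0.03 over all genes tested, of which 44.5% were higher and 55.5% lower on average; counts of list members by direction are to be read against these shares. The 2 day 19 arrays were less alike than the arrays of any other pair: the SD of the difference between the pair was 0.555 at day 19, 0.264 in diestrus, 0.239 at day 12 and 0.328 after birth. More than 1 log2 separated the day 19 arrays for 652 genes, against 90 genes in diestrus. Correlations of day 19 replicate 2 with the other 7 arrays were 0.969 to 0.977, and those among the other arrays were 0.980 to 0.992.

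The split had a direction by cell type. The mean level of 28 interferon-response genes was 6.57 and 9.12 on day 19 replicates 1 and 2, against 6.56 and 6.59 on the diestrus arrays. The 13 T and NK cell markers averaged 4.75 and 6.86 at day 19, against 4.84 and 4.85 in diestrus. Replicate 2 was thus the high array for these immune lists. The 14 atrial muscle markers averaged 8.79 and 7.07 at day 19, against 7.11 and 7.62 in diestrus, and the 11 measured mesothelium markers (the outer lining of the heart) averaged 6.59 and 5.51, against 5.45 and 5.80. A list of 23 platelet genes, compiled after the values were seen, averaged 7.85 and 6.25, against 6.29 and 6.25. Replicate 1 was therefore the high array for the means of the atrial, mesothelial and platelet lists. The part of these cells in the results below was not tested. Not all atrial markers followed the mean. Myl4, a defining marker with Myl7, Sln and Bmp10, was 7.03 and 6.14 at day 19, against 6.09 and 7.25 in diestrus. Kcnj3 (9.11 on replicate 1, against 9.43 and 9.41), Kcna5 and Smpx lay below diestrus on replicate 1.

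**Figure D1:**
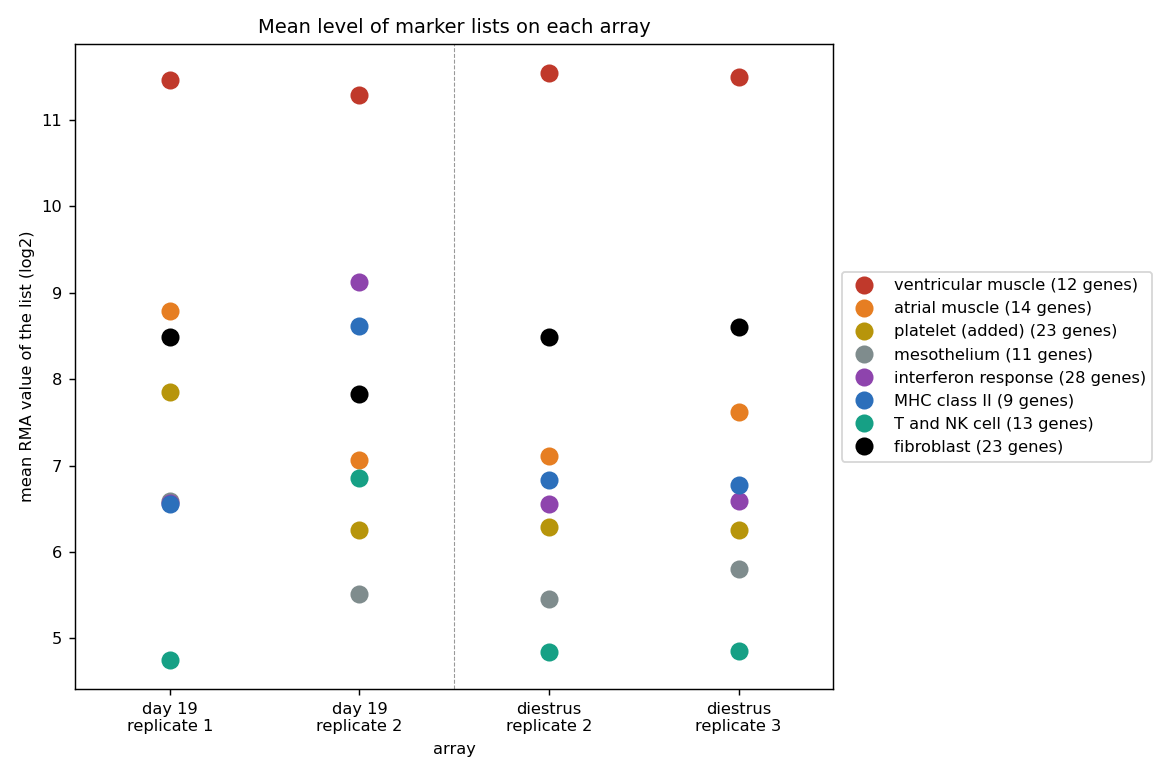
Mean RMA value (log2) of the genes of 8 marker lists on each of the 4 arrays, with the day 19 arrays left of the dashed line and the diestrus arrays right of it; each point is 1 list on 1 array. The interferon response stands at 9.12 on day 19 replicate 2 and at 6.57 on replicate 1, while atrial muscle stands at 7.07 and 8.79; ventricular muscle lies between 11.29 and 11.54 on all 4, and the points of 3 lists coincide at 6.56 to 6.59 on replicate 1.

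Of 13872 genes tested, 0 (0%) passed an adjusted p of 0.05 for day 19 against diestrus with limma and Benjamini-Hochberg adjustment. At an unadjusted p under 0.05 there were 1011 genes, 7.29% of those tested, and the smallest adjusted p was 0.181, for Scd4. Against the mean of the other 3 groups, 0 genes (0%) passed in the same fit, with 1244 at an unadjusted p under 0.05 and a smallest adjusted p of 0.0981. Without day 19 replicate 1, a fit in which the lone replicate 2 is assumed to vary like the other groups called 1233 genes, and without replicate 2 it called 2, Bmp10 and Cxcl13. Leaving out diestrus replicate 2 gave 1 call, Erv3. The genes are therefore described by how each day 19 array stood to the diestrus arrays.

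A gene was put in the class higher on both arrays where both day 19 arrays lay above both diestrus arrays and each lay at least 0.5 log2 above the diestrus mean, and lower on both arrays by the mirror of that rule. There were 112 such higher genes (0.807% of those tested) and 93 such lower genes (0.670%). Counts of list members in these classes are to be read against these shares. The same rule gave 58 higher (0.418%) and 61 lower (0.440%) at day 12 of pregnancy, and 100 higher (0.721%) and 111 lower (0.800%) after birth. These comparisons share the diestrus arrays. After each array was centred on its median, which moved the median difference of all genes to -0.08, the day 19 split was 78 higher and 121 lower, 39.2% higher instead of 54.6%. With 1 array left out the rule asks for less: it then gave 1295 higher and 1626 lower genes without day 19 replicate 1, 290 and 166 without day 19 replicate 2, 137 and 173 without diestrus replicate 2, and 257 and 124 without diestrus replicate 3. Just inside the limit of 0.5 stood Fstl3 (0.5002) and Zfp458 (0.5005), and just outside AF357425 (0.4949) and F2rl2 (0.4941). On the lower side Prex2 (-0.5045) and Snhg17 (-0.5058) were inside, while Plscr4 (-0.4998) and Lrtm1 (-0.4970) were outside.

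Genes seen on 1 array only were at least 1 log2 from the diestrus mean and outside the diestrus range on that array, and within 0.25 of the diestrus mean on the other. Replicate 2 alone had 301 higher genes (2.17%) and 100 lower genes (0.721%). Replicate 1 alone had 24 higher (0.173%) and 0 lower (0%). A further 38 genes (0.274%) stood at least 0.5 above diestrus on 1 array and at least 0.5 below on the other. More genes were thus apart on replicate 2 alone than on both day 19 arrays.

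**Figure D2:**
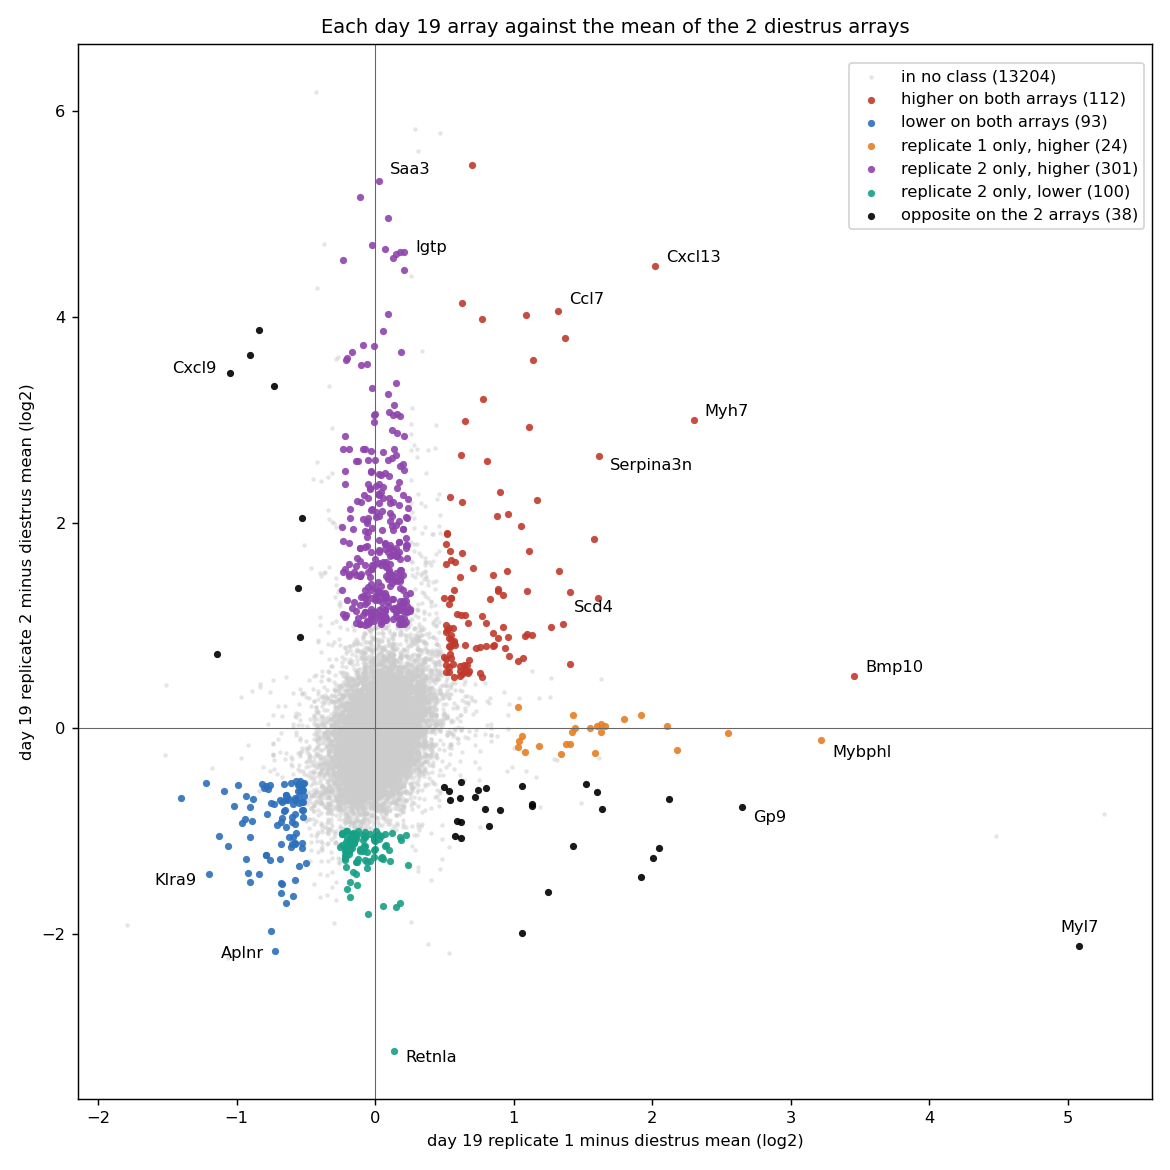
Difference of each of 13872 genes from the mean of the 2 diestrus arrays (log2), on day 19 replicate 1 along the x axis and replicate 2 along the y axis; each point is a gene, coloured by class with the number of genes in brackets. The 301 genes of replicate 2 alone form a column above 0, and the 112 genes higher on both arrays spread to the upper right, with Myh7 at 2.30 and 3.00.

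The promoters of leading genes of 2 classes are shown because Cxcl13 and Cxcl10, both chemokine genes, stood in different classes: Cxcl13 was higher on both day 19 arrays, while Cxcl10, Saa3 and Gzmb were higher on replicate 2 alone. Each sequence runs from 250 bases before to 50 bases after the RefSeq start of the gene, on the gene's strand, in GRCm38.p6. Capitals mark AANNGAAA, the core bound by interferon regulatory factors, or TTCNNNGAA, the core bound by STAT factors, found on either strand.
Cxcl13 (chr5:95956689-95956988, + strand): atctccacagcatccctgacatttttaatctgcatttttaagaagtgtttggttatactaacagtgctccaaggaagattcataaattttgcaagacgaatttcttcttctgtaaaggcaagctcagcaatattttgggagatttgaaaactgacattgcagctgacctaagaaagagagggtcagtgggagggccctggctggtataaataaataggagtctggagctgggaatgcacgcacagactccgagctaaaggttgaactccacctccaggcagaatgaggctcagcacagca
Cxcl10 (chr5:92348840-92349139, - strand): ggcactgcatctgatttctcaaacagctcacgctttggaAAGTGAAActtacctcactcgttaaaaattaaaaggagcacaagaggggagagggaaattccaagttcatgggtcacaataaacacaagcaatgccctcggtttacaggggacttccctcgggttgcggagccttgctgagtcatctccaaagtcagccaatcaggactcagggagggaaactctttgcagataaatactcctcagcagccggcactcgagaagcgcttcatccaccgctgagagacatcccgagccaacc
Saa3 (chr7:46715627-46715926, - strand): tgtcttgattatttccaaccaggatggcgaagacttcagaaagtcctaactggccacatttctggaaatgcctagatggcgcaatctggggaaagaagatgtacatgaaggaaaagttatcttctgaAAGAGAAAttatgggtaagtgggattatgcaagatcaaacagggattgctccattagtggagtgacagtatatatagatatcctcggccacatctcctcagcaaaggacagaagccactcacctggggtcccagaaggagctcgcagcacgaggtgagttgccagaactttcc
Gzmb (chr14:56262285-56262584, - strand): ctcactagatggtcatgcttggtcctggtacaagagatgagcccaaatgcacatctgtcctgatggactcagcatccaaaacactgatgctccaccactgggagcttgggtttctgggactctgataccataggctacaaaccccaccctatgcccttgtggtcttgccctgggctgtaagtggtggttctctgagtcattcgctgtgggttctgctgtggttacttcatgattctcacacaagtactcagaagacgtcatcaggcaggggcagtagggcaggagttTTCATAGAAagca
Cxcl10 and Saa3 each held 1 match to AANNGAAA, and Gzmb held 1 match to TTCNNNGAA. The Cxcl13 window held neither, nor TGACGTCA, the site of ATF and CREB factors, nor CCAAT followed 9 bases later by CCACG, the ER stress response element. The windows of Myh7 and Serpina3n also held 0 matches to the 4 motifs.

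Over the genes with a RefSeq promoter entry, AANNGAAA occurred in 45.6% of the 237 windows of genes higher on replicate 2 alone. It occurred in 25.0% of the 76 windows of genes higher on both arrays, 20.8% of the 48 windows of genes lower on both, 18.0% of the 10898 windows of all genes tested, and 23.9% of all 32851 entries. TTCNNNGAA occurred in 13.9%, 7.9%, 8.3%, 6.8% and 8.3% of the same sets. TGACGTCA occurred in 0.4%, 3.9%, 6.2%, 3.0% and 1.8%, and in the class windows these are 1, 3 and 3 promoters. The ER stress response element occurred in 0.0%, 1.3%, 0.0%, 0.1% and 0.1%. The motifs may overlap each other, and a match is letters in a window and no more.

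The class higher on both arrays held mostly genes that were also farther from diestrus on replicate 2. Of the 112, 81 stood farther on replicate 2 than on replicate 1, the median differences being 0.674 on replicate 1 and 1.01 on replicate 2, and 69 had the 2 arrays within 0.5 log2 of each other. The unadjusted p was under 0.05 for 102 of them. Both day 19 arrays lay above the 4 day 12 and post-partum arrays for 60 of the 112 (53.6%), beside 787 of all genes tested (5.67%). The rule that chose these genes used the same arrays, so these counts are a description with no test.

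Myh7, the slow or beta myosin heavy chain of the fetal ventricle, led the class. It stood at 8.99 and 9.69 on the day 19 arrays, against 6.98 and 6.41 on the diestrus arrays. The groups did not overlap, as the rule of the class requires. Both day 19 arrays also lay above day 12 (6.32 and 6.97) and post-partum (7.56 and 6.88). The difference was 2.65 (SE 0.35), 6.28-fold, with an adjusted p of 0.503 in limma. Its adult partner Myh6, the fast alpha chain, stood at 12.48 and 12.34 against 12.53 and 12.54, a difference of -0.13 (SE 0.13). On the same 2 day 19 arrays the atrial light chain Myl7 was at 11.76 and 4.56. Any part of atrial cells in the Myh7 values was not tested.

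Of 26 fetal and hypertrophy genes tested, 5 were higher on both arrays and 0 lower on both, beside 0.807% and 0.670% of all genes tested. Their median difference was 0.09, which was 0.31 on replicate 1 and -0.07 on replicate 2. Nmrk2, an enzyme of NAD synthesis in stressed muscle, stood at 7.31 and 8.36 at day 19, against 6.10 and 6.18 in diestrus, a difference of 1.70 (SE 0.34, adjusted p 0.639 in limma). Its post-partum arrays, at 6.99 and 7.40, overlapped day 19. Nppb, the B-type natriuretic peptide made under wall stretch, stood at 11.74 and 11.81 against 11.35 and 10.42. As the rule requires, Nmrk2 and Nppb did not overlap diestrus, although the diestrus arrays of Nppb were far apart. Ankrd1, a stretch-responsive protein of the sarcomere and nucleus, read 12.27 and 12.70 at day 19, against 11.82 and 11.70. Rcan1, an inhibitor of calcineurin that is itself a calcineurin target, read 9.67 and 9.30, against 8.99 and 8.30, and overlapped post-partum (9.56 and 9.19).

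The other 21 members of that list were outside the class. Ankrd2, a stretch-responsive relative of Ankrd1, was 6.04 and 6.82 at day 19, against 5.48 and 5.76 in diestrus. Ankrd23 was 12.06 and 11.69, against 11.63 and 11.31. Ankrd2 and Ankrd23 did not overlap diestrus, and each missed the limit of 0.5 on 1 array. Such lack of overlap was common: of 13872 genes tested, both day 19 arrays lay above both diestrus arrays for 2278 and below both for 2825. Nppa, the atrial natriuretic peptide, was 12.66 and 11.77 at day 19, against 11.92 and 11.03 in diestrus, and overlapped. Acta1, the skeletal alpha-actin of the fetal heart, was 10.21 and 8.78, against 8.52 and 9.03, and was high on replicate 1 alone. Pdlim3 and Mybpc2, proteins of the sarcomere, stood on opposite sides of diestrus on the day 19 arrays. Acta1 was also higher on the day 12 and post-partum arrays, at 9.73 and 9.43 and at 10.40 and 9.88.

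**Figure D3:**
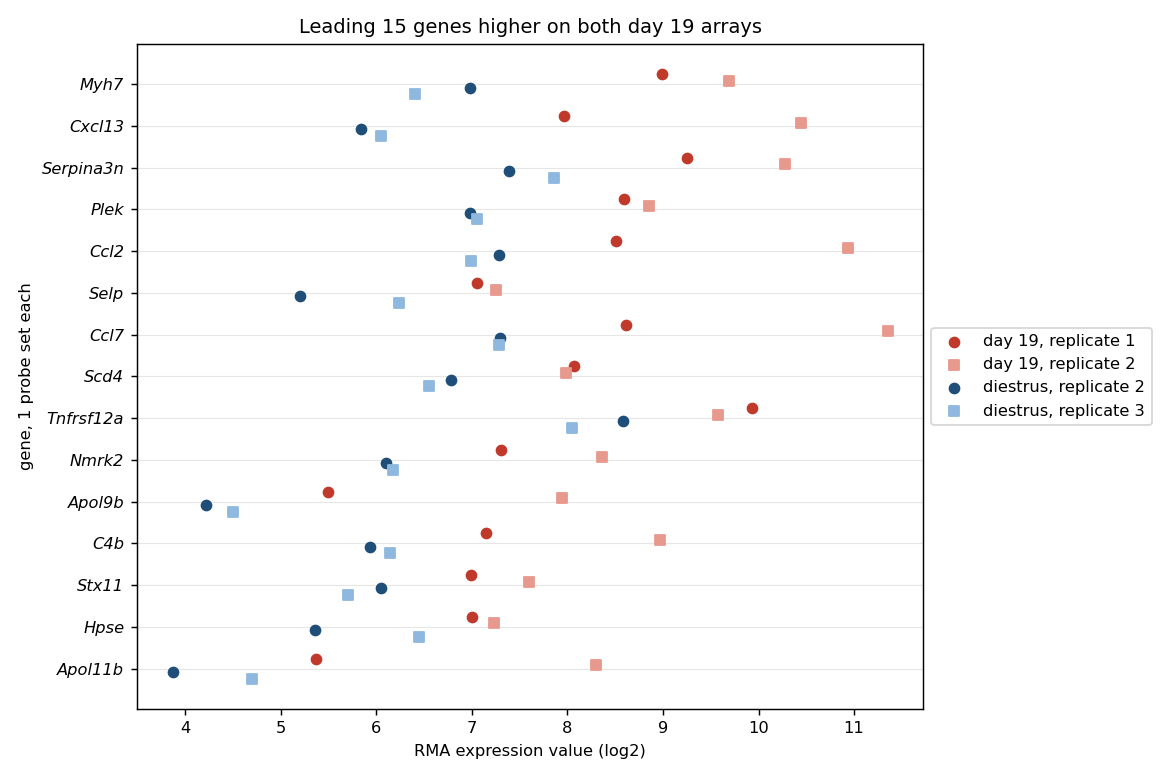
RMA value (log2) of the leading 15 genes of the class higher on both day 19 arrays, ranked by the smaller of their 2 differences; red points are day 19 replicates 1 and 2 and blue points diestrus replicates 2 and 3. All red points lie right of the blue points of the same gene, as the rule requires, and Ccl7 reaches 11.35 on replicate 2 against 8.61 on replicate 1, while Scd4 reads 7.99 and 8.07.

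Chemokines formed another group among the leading genes. Cxcl13, which draws B cells and is made by stromal and lymphoid cells, stood at 7.96 and 10.44 on the day 19 arrays, against 5.84 and 6.05 on the diestrus arrays. The difference was 3.26 (SE 0.65, adjusted p 0.639 in limma), and the other 4 arrays lay between 5.62 and 5.81. Ccl2 and Ccl7 draw monocytes. Ccl2 read 8.51 and 10.94 at day 19, against 7.28 and 6.99 in diestrus, and Ccl7 read 8.61 and 11.35, against 7.30 and 7.28. Ccl2 was also 8.76 and 8.90 on the post-partum arrays, so its level on day 19 replicate 1 was below both. Ccl7 was 7.31 and 8.83 on the post-partum arrays, and 8.83 was above its level on day 19 replicate 1.

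Of 29 chemokine and cytokine genes tested, 6 were higher on both arrays (20.7%), 5 were higher on replicate 2 alone, 1 lower on it alone and 1 opposite. The shares over all genes tested were 0.807%, 2.17%, 0.721% and 0.274%. The list median was 0.20 on replicate 1 and 1.48 on replicate 2. Ccl8, a monocyte chemokine, was 5.51 and 9.03 at day 19, and averaged 2.39 above diestrus. Ccl6, a chemokine of myeloid cells, was 8.18 and 9.35 at day 19, against 7.10 and 7.50, and overlapped post-partum (7.90 and 8.29). Il1b, an inflammatory cytokine, was 5.17 and 7.50, against 4.65 and 4.37. Cxcl9, an interferon-induced chemokine for T cells, was 7.35 and 11.87, against 8.40 and 8.41, and so stood below diestrus on replicate 1 and above it on replicate 2.

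Acute-phase proteins formed a further group. Serpina3n, a protease inhibitor of the acute phase, read 9.25 and 10.28 at day 19, against 7.39 and 7.86 in diestrus, with the day 12 and post-partum arrays between 8.09 and 8.63. Its difference was 2.14 (SE 0.34, adjusted p 0.503 in limma). Hp, haptoglobin, which binds free haemoglobin, read 5.86 and 6.44, against 4.78 and 5.04. Both genes were above all other arrays on each day 19 array. C4b, complement component 4, read 7.15 and 8.97, against 5.94 and 6.14, and Lcn2, which binds bacterial iron carriers, read 6.75 and 8.32, against 6.09 and 6.15.

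Those 4 were the members higher on both arrays among 20 complement and acute-phase genes tested, and a further 6 were higher on replicate 2 alone, among them Saa3 and the 3 C1q chains. The list of IL-6 family and STAT3 targets, which shares Serpina3n, Hp and Lcn2 with it, held 4 of 20, the remaining one being Timp1. Unadjusted limma p-values under 0.05 were reached by 7 and 9 genes of these lists of 20, beside 7.29% of all genes tested. Serpina3n, Hp, Lcn2 and Fgl2 counted in both, and 0 genes passed adjustment. Apol9b and Apol11b, apolipoprotein L genes, read 5.50 and 7.94, and 5.37 and 8.30, at day 19, against 4.22 and 4.50, and 3.87 and 4.70, in diestrus. Apol11b overlapped the day 12 arrays, which were 5.85 and 6.97.

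Immediate-early genes are switched on within minutes of a stimulus, handling of the tissue included. Of 29 tested, 26 were higher on average at day 19, beside 44.5% of all genes tested, and 4 were higher on both arrays, beside 0.807%. The list median was 0.42, which was 0.22 on replicate 1 and 0.62 on replicate 2. Atf3, a stress-induced transcription factor, was 7.56 and 8.67 at day 19, against 6.71 and 6.49 in diestrus. Btg2, which slows cell division, was 8.31 and 9.08, against 7.75 and 7.72. Fos was 5.90 and 5.90, against 4.71 and 5.49, and Fosb, its close relative, was 5.58 and 5.65, against 4.90 and 5.15. Fos and Fosb thus stood at nearly the same level on both day 19 arrays, while Egr1, at 6.93 and 7.61 against 6.45 and 6.97, overlapped.

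Several genes of stress and growth arrest stood in the class, some with close day 19 values. Mt2, a metallothionein that binds zinc, was 10.36 and 10.42 at day 19, against 9.42 and 9.47 in diestrus, a difference of 0.95 (SE 0.13, adjusted p 0.503 in limma). Tnfrsf12a, the receptor of the cytokine TWEAK, was 9.93 and 9.58, against 8.58 and 8.05, above all day 12 and post-partum arrays as well. Hmox1, which breaks down haem, was 6.65 and 7.10, against 5.96 and 6.03, and overlapped post-partum (6.49 and 6.82). Cdkn1a, the cell cycle inhibitor p21, was 9.46 and 10.38, against 8.80 and 8.01. Bnip3, a mitophagy receptor, was 9.07 and 9.10, against 8.61 and 8.49, with day 12 nearly as high at 9.06 and 9.02. Mthfd2, a mitochondrial enzyme of folate metabolism, was 6.00 and 7.10, against 5.30 and 5.62. Mt2, Tnfrsf12a, Hmox1 and Bnip3 had their day 19 arrays within 0.5 of each other, while Cdkn1a and Mthfd2 were farther apart.

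Metabolic genes that respond to fatty acids and to glucocorticoids were among the closest pairs. Scd4, a fatty acid desaturase of the heart, had 8.07 and 7.99 at day 19, against 6.78 and 6.55 in diestrus. This was the gene with the smallest p: the difference was 1.36 (SE 0.14), 2.57-fold, with an adjusted p of 0.181 in limma, and day 12 stood in between at 7.26 and 7.39. Scd1, its relative, had 8.53 and 6.63, against 8.50 and 8.25, and was low on replicate 2 alone. Angptl4, an inhibitor of lipoprotein lipase, had 6.49 and 6.20 at day 19, against 5.23 and 5.21. Pdk4, which holds back glucose oxidation, had 11.30 and 11.33, against 10.65 and 10.44.

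Angptl4 and Pdk4 were not confined to day 19. The day 12 arrays had 6.30 and 5.87 for Angptl4 and 11.51 and 11.38 for Pdk4, while the post-partum arrays had 5.54 and 5.56, and 10.23 and 10.80. Of 24 PPAR-responsive genes tested, these were the 2 higher on both arrays, and the list median was 0.08. Of 20 glucocorticoid-responsive genes, 5 were higher on both arrays (Angptl4, Pdk4, Mt2, Cdkn1a and Lcn2) and 0 lower on both. The shares over all genes tested were 0.807% and 0.670%. The list median was 0.25, which was 0.11 on replicate 1 and 0.31 on replicate 2. The other 15 members were outside both classes. Mt1, the partner of Mt2, was 9.39 and 9.60 at day 19, against 8.80 and 8.99, and Fkbp5, a chaperone of steroid receptors, was 5.78 and 5.99, against 5.60 and 5.43. Zbtb16, a transcription factor, was 8.34 and 8.27, against 8.28 and 8.28, and Sgk1, a kinase, was 7.71 and 7.77, against 7.58 and 7.65. Pfkp, the platelet form of phosphofructokinase, was 8.76 and 9.52, against 8.38 and 8.13.

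Matrix proteases and their inhibitors gave 3 of 23 genes higher on both arrays, beside 0.807% of all genes tested. Timp1, an inhibitor of matrix proteases, was 7.59 and 8.04 at day 19, against 6.55 and 6.86 in diestrus, and was also high after birth, at 7.93 and 8.60. Mmp19, a matrix metalloprotease, was 6.76 and 6.71, against 5.78 and 6.05, and above the other 4 arrays. Plaur, the urokinase receptor, was 6.20 and 7.37, against 5.38 and 5.93. The fibrillar collagens showed no such pattern: Col1a1 was 8.44 and 7.93, against 8.05 and 8.27, and Col3a1 was 8.34 and 7.78, against 7.97 and 7.89. Of the 24 collagen genes and collagen-modifying enzymes tested, 0 were in either class. Over all genes tested the classes held 0.807% and 0.670%, so 0 in a list of this size says little.

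Genes of platelets, some of them shared with other cells, also stood in the class. Plek, a signalling protein of platelets and leukocytes, was 8.59 and 8.85 at day 19, against 6.98 and 7.05 in diestrus. Selp, P-selectin of platelets and activated endothelium, was 7.05 and 7.25, against 5.20 and 6.24, and Stx11, a secretion protein of platelets and killer cells, was 6.99 and 7.60, against 6.05 and 5.70. Of the 23 platelet genes, 5 were higher on both arrays, 7 on replicate 1 alone and 8 were opposite. The shares over all genes tested were 0.807%, 0.173% and 0.274%. This list was compiled after the values were seen, so its counts are no test. Platelet genes high on replicate 1 were also high on 1 day 12 array: Gp9, a platelet glycoprotein, was 10.65 and 7.23 at day 19, 7.32 and 10.03 at day 12, and 8.29 and 7.71 in diestrus. Hpse, heparanase, differed by 1.21 (SE 0.57), but a second probe set at a low mean level of 2.78 gave -0.03.

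A few members of the class belonged to other cells or roles. Bmp10, a growth factor made by atrial muscle, was 8.06 and 5.12 at day 19, against 4.35 and 4.86, so nearly all of its difference lay on the array with high atrial markers. Slc4a1, the anion exchanger of red cells, was 6.92 and 7.56, against 6.07 and 6.07, and the day 12 arrays were as high, at 7.08 and 7.59. Of 37 genes of DNA replication and mitosis tested, 30 were higher on average at day 19 with a median of 0.26. The median was 0.08 on replicate 1 and 0.35 on replicate 2. Of these genes, 1 was higher on both arrays: Top2a, a topoisomerase of dividing cells, at 5.73 and 6.45, against 4.96 and 5.39. Agt, the angiotensin precursor, was 6.60 and 7.03, against 6.37 and 5.80. Lgals3, a lectin of macrophages, was 6.43 and 7.70, against 5.71 and 6.12, and Anxa2, a membrane-binding protein, was 9.06 and 9.10, against 8.34 and 8.76.

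The class lower on both arrays had smaller differences. The medians over its 93 genes were -0.642 on replicate 1 and -0.805 on replicate 2, 70 genes stood farther on replicate 2, and 71 had the 2 arrays within 0.5 of each other. The unadjusted p was under 0.05 for 82 genes. Both day 19 arrays lay below the 4 day 12 and post-partum arrays for 41 of the 93 (44.1%), beside 1123 of all genes tested (8.10%). The rule chose these genes on the same arrays, so these counts are a description with no test.

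Of the 93 genes, 83 stood in none of the lists and 23 were small RNA genes, so the named genes are examples. Aplnr, the receptor of apelin on endothelium, stood at 8.03 and 6.58 on the day 19 arrays, against 8.88 and 8.61 on the diestrus arrays, a difference of -1.44 (SE 0.46, adjusted p 0.657 in limma). The other 4 arrays lay between 8.32 and 9.05. Kcnd2, a potassium channel subunit of the transient outward current, was 8.54 and 8.50, against 9.34 and 9.09. It was the only one of 21 potassium channel genes in either class, while 19 of the 21 were lower on average, beside 55.5% of all genes tested, with a median of -0.25. That median was -0.13 on replicate 1 and -0.42 on replicate 2. Slc9a2, a sodium-proton exchanger, was 5.36 and 4.77, against 6.42 and 6.11, below the other 4 arrays (5.78 to 6.33). Agtr1a, the angiotensin receptor, was 9.63 and 9.53, against 10.13 and 9.99, which is just short of the rule.

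Fibroblast and matrix genes followed. Abca6, a lipid transporter of fibroblasts, was 7.13 and 5.91 at day 19, against 7.86 and 7.91 in diestrus. Smoc2, a matrix protein of fibroblasts, was 8.39 and 7.33, against 9.14 and 8.93, and Omd, osteomodulin, was 4.97 and 4.05, against 5.42 and 5.87. All 3 were lower still on replicate 2. Of 23 fibroblast markers, 19 were lower on average with a median of -0.25, which was -0.10 on replicate 1 and -0.51 on replicate 2. Of 11 small leucine-rich proteoglycans, 10 were lower, with medians of -0.20 and -0.74 on the replicates, and Omd was the one in the class. Aspn and Ogn, of the same family, were 8.96 and 7.94, and 10.14 and 9.85, at day 19, against 9.20 and 9.52, and 10.46 and 10.61, in diestrus.

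Nerve and guidance genes were also present. Cdh19, a cadherin of Schwann cells, was 5.24 and 4.41 at day 19, against 5.89 and 5.96, and was 1 of 7 nerve and Schwann markers tested in the class. Slit2, a guidance protein, was 6.14 and 6.34, against 7.32 and 6.74. Nrn1, neuritin, was 7.31 and 6.73, against 8.14 and 7.85, and Necab1, a calcium-binding protein, was 6.05 and 5.53, against 6.76 and 6.86. Slit2, Nrn1 and Necab1 lay below all other 6 arrays on both day 19 arrays.

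The other leading lower genes had mixed roles. Ide, the insulin-degrading enzyme, was 9.26 and 9.20 at day 19, against 10.04 and 10.04 in diestrus, a difference of -0.81 (SE 0.13, adjusted p 0.503 in limma). Ide was as low on the day 12 arrays (9.35 and 9.23) and post-partum (9.12 and 8.97), so only the diestrus arrays stood apart. Cenpf, a kinetochore protein, was 6.59 and 6.63, against 7.50 and 7.60, opposite in direction to most of the mitosis list. Ptcd3, a protein of the mitochondrial ribosome, was 9.79 and 9.35, against 10.36 and 10.79, a difference of -1.01 (SE 0.55), and its second probe set gave -0.47. For Ppan, a ribosome assembly factor with a difference of -0.54 (SE 0.18), a second probe set gave 0.23, the other direction.

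Some leading lower genes rested on 1 diestrus array. Prap1 was 5.06 and 4.97 at day 19, a difference of -1.10 (SE 0.46) from diestrus, where replicate 2 stood at 5.24. Tfpi2, a protease inhibitor, was 5.62 and 5.68, against 5.86 and 7.26. Only diestrus replicate 3 was high for both. Klra9, a receptor of natural killer cells, was 4.17 and 3.95, against 5.20 and 5.54, a low level on all 8 arrays. Scgb1c1, a secretoglobin, was 9.39 and 9.38, against 10.18 and 10.07. Uckl1os was 5.40 and 5.39, against 6.19 and 6.39. Hlf, a clock-controlled transcription factor, was 7.04 and 6.48, against 7.25 and 8.04.

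**Figure D4:**
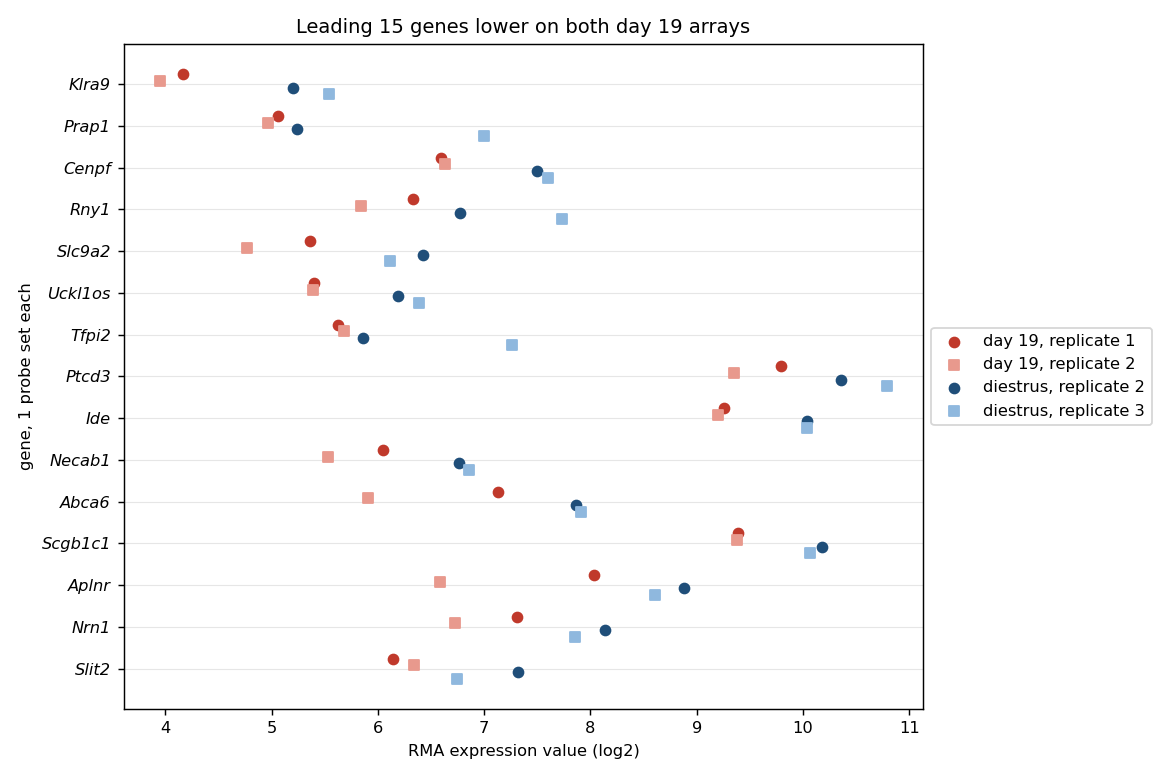
RMA value (log2) of the leading 15 genes of the class lower on both day 19 arrays, ranked by the smaller of their 2 differences; red points are day 19 replicates 1 and 2 and blue points diestrus replicates 2 and 3. The blue points of Tfpi2 (5.86 and 7.26) lie far apart, while those of Ide coincide at 10.04 and its red points stand at 9.26 and 9.20.

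Of the 24 genes higher on replicate 1 alone, 16 stood in the atrial, mesothelium, platelet or another list of neighbouring cells. In the class higher on both arrays, 8 of 112 did. The platelet list was compiled after the values were seen, and the share of all genes tested in these lists was not counted. Mybphl, a myosin-binding protein of the atrium, was 8.44 and 5.10 at day 19, against 5.10 and 5.33 in diestrus. Fgf12, a sodium channel regulator, was 7.76 and 5.16, against 5.06 and 5.36, and Upk1b, a mesothelial membrane protein, was 7.52 and 5.13, against 5.07 and 5.61. Thbs1, Gp5 and Itgb3, platelet genes, were 9.27 and 7.18, 6.67 and 4.87, and 8.06 and 6.35, against 7.10 and 7.23, 4.73 and 4.75, and 6.11 and 6.42. Myl7, the atrial light chain, showed the widest split, at 11.76 and 4.56, against 5.12 and 8.24. Sln, sarcolipin of the atrium, was 10.62 and 4.52, against 4.51 and 6.21. Both were also high on 1 day 12 array, Myl7 at 4.69 and 10.04 and Sln at 4.28 and 7.89. The post-partum arrays had 4.63 and 4.81 for Myl7, near its value on day 19 replicate 2.

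Genes of inflammation and the interferon response led those higher on replicate 2 alone. Of these 301 genes, 47 stood in the lists of immune cells, MHC and interferon response, and 237 in none of the lists. The class higher on both arrays had 3 of 112 in those immune lists, and the share of all genes tested was not counted. Saa3, an acute-phase amyloid protein, was 4.79 and 10.08 at day 19, against 4.75 and 4.76 in diestrus. Cxcl10, an interferon-induced chemokine, was 5.45 and 10.73, against 5.64 and 5.49, and Gzmb, granzyme B of killer cells, was 4.07 and 8.79, against 3.89 and 4.30. Gbp8 and Igtp, interferon-induced GTPases, were 3.83 and 8.71, and 7.76 and 12.18, against 3.47 and 4.02, and 7.45 and 7.65. Acod1, which makes itaconate in macrophages, was 4.69 and 9.28, against 4.73 and 4.51. On replicate 1 each of these 6 lay within 0.21 log2 of the diestrus mean. Isg15, a ubiquitin-like interferon product, was the 1 of 26 interferon-response genes tested in the class higher on both arrays, at 4.82 and 6.19, against 4.19 and 4.41, while 19 were higher on replicate 2 alone.

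Of the 100 genes lower on replicate 2 alone, 86 stood in none of the lists, and no list held more than 2 of them. The leading ones were of mixed function. Retnla, a resistin-like protein of macrophages and fat, was 7.91 and 4.63 at day 19, against 7.79 and 7.76, with the other 4 arrays between 5.50 and 6.87. Hpgd, which inactivates prostaglandins, was 8.43 and 6.64, against 8.15 and 8.59. Itgbl1, an integrin-like matrix protein, was 7.38 and 5.62, against 7.19 and 7.67. Ctla2a was 8.43 and 6.55, but its diestrus arrays were 6.83 and 9.67. Iigp1 and Gbp4, interferon-induced GTPases, and BC023105 lay below diestrus on replicate 1 and above it on replicate 2: Iigp1 was 6.82 and 11.52, against 7.59 and 7.72.

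The split on replicate 2 also reached whole lists. The MHC class II genes had medians of -0.23 on replicate 1 and 2.31 on replicate 2, the MHC class I and immunoproteasome genes 0.00 and 2.30, and macrophage markers 0.09 and 1.43. All 47 oxidative phosphorylation genes tested were lower on average at day 19, with a median of -0.13, which was 0.02 on replicate 1 and -0.29 on replicate 2. Of 35 genes of the citric acid cycle and branched-chain breakdown, 32 were lower, with medians of 0.03 and -0.45. The lower averages of these mitochondrial lists thus came from replicate 2. The 18 steroid and prolactin axis genes tested gave 0 in either class, beside 0.807% and 0.670% of all genes tested, with a median of -0.10.

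Other lists had few or 0 members in the both-array classes. These classes held 0.807% and 0.670% of all genes tested, so a count of 0 in a short list says little. Of 24 ER chaperones and stress genes tested, 20 were higher on average at day 19 with a median of 0.22, and 0 were in either class. Their median was 0.08 on replicate 1 and 0.35 on replicate 2. Heat shock proteins (19 tested, median 0.04), cytosolic ribosomal proteins (24 tested, median 0.00), proteasome subunits (29 tested, median 0.08) and fatty acid oxidation genes (25 tested, median -0.04) also had 0. Of 23 calcium handling genes, 18 were lower on average, with a median of -0.13, and 0 were in either class. Their median was -0.02 on replicate 1 and -0.32 on replicate 2, so the lower average came mostly from replicate 2. Actin cytoskeleton and adhesion genes leaned the other way: 28 of 33 were higher on average, with a median of 0.23, and 2 were higher on both arrays. Their medians on the replicates were 0.21 and 0.30. Pericyte and smooth muscle markers had 14 of 18 lower, with a median of -0.27 (-0.16 and -0.42 on the replicates), and 0 in either class.

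**Figure D5:**
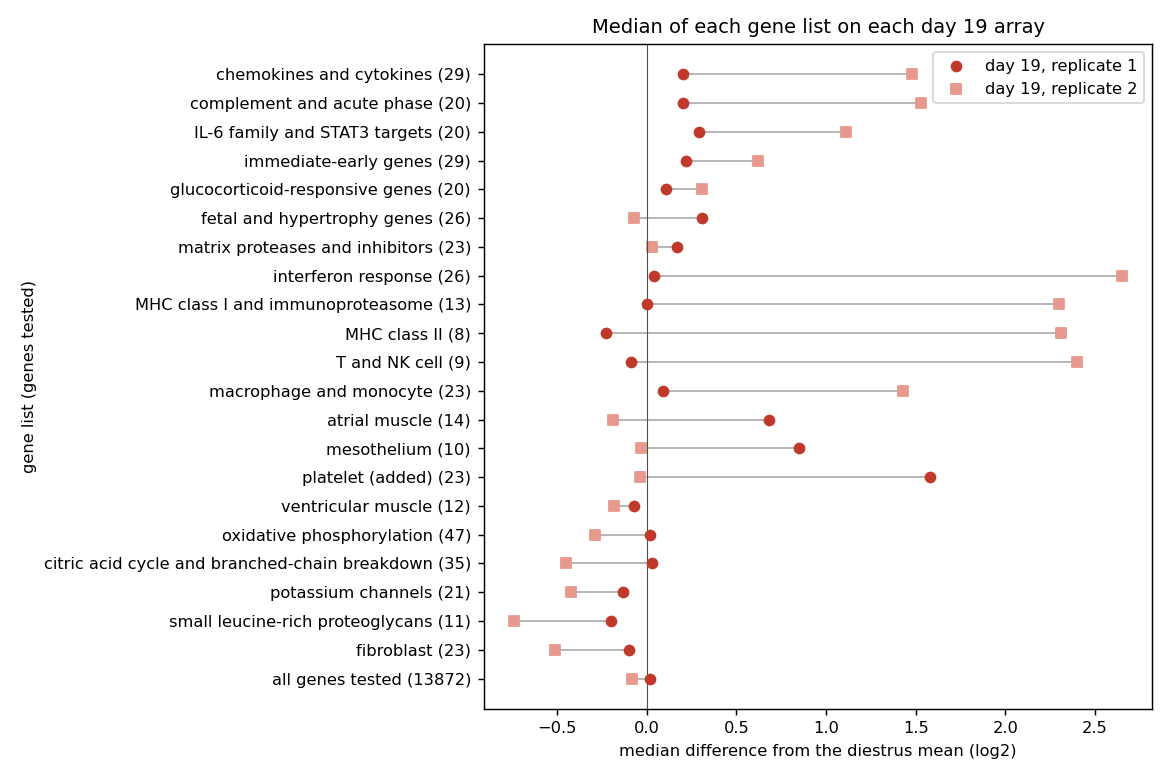
Median difference from the diestrus mean (log2) of 21 gene lists and of all genes tested, on day 19 replicate 1 (dark circles) and replicate 2 (light squares); the number of genes tested is in brackets and the list marked as added was compiled after the values were seen. Immune lists lie far apart on the 2 arrays (interferon response 0.04 and 2.65), as do the platelet genes in the other direction (1.58 and -0.04), while all genes tested had medians of 0.02 and -0.08.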

How the data were processed

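Expression was measured with 1-colour arrays. The deposited log2 values, 1 per probe set and array, came from RMA as run by the authors in Affymetrix Expression Console; the tool names are per the submitters' processing notes, with version, settings and genome build not given in the sources used here. RMA equalises the arrays, so changes shared by most genes are removed. No depth applies: the number of arrays limits the precision, and the median standard error of a difference was 0.170.

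Of 34365 probe sets, 23521 had 1 gene symbol, 1814 had several and 9030 were unnamed here; the probe set with the highest mean was kept for each of 22180 genes. Tests covered the 13872 genes with at least 1 group mean at or above 5.19, the median of the whole table. Some genes thus entered only through the group where they were high, such as Isg15, Il1b and Gzmb through day 19. Klra9 and Omd entered only through diestrus, and the place of such genes in a class is no test. limma 3.58.1 in R 4.3.3 fitted 1 mean per group to all 8 arrays (4 residual and 3.68 prior degrees of freedom), two-sided, with Benjamini-Hochberg adjustment at 0.05; the fit was tested on simulated data. Of 1260 genes in 58 lists, 1156 were measured; the other 104 were not analysed here. Named genes were the leading 15 of each both-array class, 6 of each other class and direction, up to 5 of each list in a both-array class, and 9 fixed genes, predicted and numbered small RNA genes left out; further list members named in the text were chosen after their values were seen. Classes, lists and rules were chosen with earlier results of these data known. Alternatives covered filters, probe set averaging, centring, quantile normalization, array weights, class limits and leaving out each array. Promoter sequences are RefSeq's, in GRCm38.p6, the first entry of a gene.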

Additional observations from a re-analysis of the deposited data

How the results depend on the processing

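No paired analysis was possible because the day 19 arrays carry replicate numbers 1 and 2 and the diestrus arrays 2 and 3, so only 1 number is shared. The count of genes past the limma threshold ranged from 0 to 1233 against diestrus and from 0 to 1535 against the other 3 groups when each array was left out; the single values were 1233 and 1535 without day 19 replicate 1, 2 and 3 without replicate 2, and 1 against diestrus without diestrus replicate 2. Of the 1233, 371 were in the classes of replicate 2 alone, 54 in the class higher on both arrays and 29 in the class lower on both. The array left alone is assumed to vary like the other groups. The class higher on both arrays ranged from 137 to 1295 genes and the class lower on both from 124 to 1626 when each array was left out; 1295 and 1626 were without day 19 replicate 1, 290 and 166 without replicate 2, 137 and 173 without diestrus replicate 2, 257 and 124 without replicate 3. With 1 array fewer the rule asks for less. With no filter the classes held 179 and 203 genes and replicate 1 alone 42. With a filter at the 75th percentile, which tests fewer genes, they held 51 and 52, replicate 1 alone 5, replicate 2 alone 264 and the opposite class 20. Limits of 0.3 gave 451 and 361, and of 1 gave 17 and 3.

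Of 767 alternative values of named genes, 689 kept direction and side of the threshold, 57 passed it when 1 day 19 array was left out, and 21 reversed. None of the genes that reversed was in a both-array class, but the rule of those classes fixes the direction when 1 array is left out. Over the fits that left out each array, the lowest and highest differences were, in genes high on replicate 1, -0.12 and 3.22 (Mybphl), -0.05 and 2.55 (Fgf12), -0.21 and 2.18 (Upk1b), -2.12 and 5.08 (Myl7), -0.77 and 2.65 (Gp9), -0.22 and 0.29 (Col1a1), and -0.15 and 0.40 (Col3a1). In genes high on replicate 2 they were -0.11 and 5.17 (Cxcl10), -0.02 and 4.70 (Gzmb), -0.84 and 3.87 (Iigp1), -0.90 and 3.63 (BC023105), -1.05 and 3.46 (Cxcl9) and -0.73 and 3.33 (Gbp4). In genes low on replicate 2 they were -3.14 and 0.14 (Retnla), -1.74 and 0.15 (Scd1), -1.73 and 0.06 (Hpgd), and -2.18 and 0.67 (Ctla2a). Col1a1 was -0.02 after centring.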

Other observations

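Small nucleolar RNA genes, a group chosen after the values were seen, guide the modification of ribosomal RNA. Of 51 tested, 43 were lower on average at day 19 (55.5% of all genes tested were), 16 were lower on both arrays (31.4%) and 0 higher on both. Their mean level was 7.05 and 6.97 on the day 19 arrays, against 7.26 and 7.63 on the diestrus arrays. The day 12 arrays stood at 6.58 and 6.94 and the post-partum arrays at 7.56 and 7.28, so the group was as low at day 12. The diestrus arrays differed from each other by a median of 0.40 over these genes. Of all 93 genes lower on both arrays, 23 were small RNA genes, which make up 184 of the 13872 genes tested. Rny1, a small RNA of the Ro particle, was 6.33 and 5.84 at day 19, 5.78 and 5.53 at day 12, 8.48 and 7.73 after birth, and 6.77 and 7.73 in diestrus.

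For Arntl and Dbp the diestrus arrays differed from each other more than the day 19 mean differed from theirs. Arntl, an activator of the clock, was 7.91 and 7.36 at day 19, against 8.39 and 5.82 in diestrus. Dbp, an output gene of the clock, was 8.35 and 7.67 at day 19, against 7.82 and 9.71 in diestrus. Of 19 clock genes tested, 14 were lower on average at day 19, beside 55.5% of all genes tested, with a median of -0.39. That median was -0.13 on replicate 1 and -0.61 on replicate 2. Times of day of tissue collection are not given in the labels.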
